A study of Setaria viridis with 23 samples.

Results

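SvKn1 (Sevir.9G107600.1) and SvRs1 (Sevir.2G029800.1) are 2 KNOX genes of Setaria viridis named by the study. They were taken by name and identifier, and no result below was used to choose them. The study had named them with their expression in these samples known, however, and placed both in a single co-expression cluster. Both are among the 35214 genes of the deposited count table and among the 21180 genes that were tested. Their identifiers place them on chromosomes 9 and 2 of the S. viridis v1.1 annotation. Coordinates and sequences are not given here.

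Class I KNOX (KNOTTED1-like homeobox) proteins are homeodomain transcription factors of the TALE superclass. They are made in the cells of shoot, inflorescence and floral meristems and are switched off where a leaf or another lateral organ begins to form. In maize, loss of kn1 reduces the branching of the inflorescence and misplaced kn1 in the leaf produces knots of extra growth. KNOX proteins act in pairs with BELL homeodomain proteins, favour the synthesis of cytokinin in Arabidopsis and rice, and in maize KN1 acts on a gibberellin 2-oxidase gene, whose enzyme inactivates gibberellin.

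The study followed the inflorescence of this panicoid grass, a relative of maize and foxtail millet, from its initiation to the formation of floral organs. RNA-seq was performed on hand-dissected inflorescence primordia of the reference accession A10.1, all untreated and grown in a single chamber regime, at 6 stages from 10 to 18 days after sowing (DAS). In the study's staging, the inflorescence meristem initiates at 10 DAS, primary and secondary branches at 12 DAS and higher-order branches at 14 DAS, spikelet meristems appear at 15 DAS, spikelets and bristles differentiate at 16 DAS, and floral organs develop at 18 DAS. Each library came from a pool of 10 to 30 primordia, with 4 libraries a stage and 3 at 12 DAS, 23 in all, so that the error below is an error between pools.

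The libraries held 7630744 to 24467495 counts, and replicates 1 and 2 of 15 DAS were the shallowest and resembled 16 DAS libraries more than those of their own stage. The first 3 stages were sequenced paired-end, with only read 1 used, and the last 3 stages single-end. The sequencing run and the stage therefore cannot be told apart in any comparison between these 2 sets of stages, and comparisons within each set are given beside them. Levels are CPM, counts scaled to a common library total, after TMM adjustment for the composition of the libraries. No correction for transcript length is included, so the level of one gene is not compared with that of the other. Changes are log2 fold changes with their standard errors (SE), and a change was called at an adjusted p under 0.05 over all tested genes. In such whole-primordium RNA, fewer cells that express a gene and less RNA in each cell cannot be told apart.

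Both genes were lowest at 10 DAS, rose over the branching stages and were highest at 16 DAS. SvKn1 then fell by 18 DAS, whereas the lower mean of SvRs1 at 18 DAS did not pass the test. Between 14 and 16 DAS no change of either gene passed the test. The mean level of SvKn1 was 2.85-fold and that of SvRs1 3.26-fold higher at 16 than at 10 DAS (adjusted p = 3.13e-08 and 2.74e-09 by edgeR's quasi-likelihood test), in a comparison across sequencing runs in which 62.1% of tested genes were called and 30.2% were higher.

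At 10 DAS, SvKn1, the counterpart of the maize gene that marks meristem cells, stood at 207, 143, 110.4 and 125 CPM in replicates 1 to 4 (mean 146 ± 42.6, SD, n = 4). At 12 DAS the values were 283, 225 and 214 CPM in replicates 1, 2 and 4 (241 ± 36.8, SD, n = 3). Every 12 DAS library thus lay above every 10 DAS library, with replicate 1 of 10 DAS closest to the lowest 12 DAS library. At 14 DAS the SvKn1 level was 345, 406, 326 and 298 CPM (344 ± 46.0, SD, n = 4), above all libraries of 12 DAS. At 15 DAS it was 349.8, 292, 394 and 376 CPM (353 ± 44.4, SD, n = 4), a range that overlapped that of 14 DAS. At 16 DAS it was 386, 358, 463 and 464 CPM (418 ± 54.3, SD, n = 4), with 2 libraries above all others of the series and 2 within the range of 15 DAS. At 18 DAS the level was 245, 277, 309.5 and 291 CPM (281 ± 27.2, SD, n = 4). All 18 DAS libraries lay below all 16 DAS libraries, and 2 of the 4 lay within the range of 12 DAS.

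SvRs1 stood at 139, 120.1, 87.4 and 106 CPM in the 10 DAS libraries (mean 113 ± 21.9, SD, n = 4). Its 12 DAS libraries held 232, 167 and 188 CPM (196 ± 33.2, SD, n = 3), all above the libraries of 10 DAS. As for SvKn1, replicate 1 was the highest library at both stages. At 14 DAS the SvRs1 level was 309, 391, 345 and 304 CPM (337 ± 40.2, SD, n = 4), again above every library of the stage before. At 15 DAS it was 370.3, 288, 441 and 363 CPM (366 ± 62.4, SD, n = 4), the widest spread of any stage for this gene. At 16 DAS it was 342, 306, 404 and 423 CPM (369 ± 54.2, SD, n = 4), within the 15 DAS range in all 4 libraries. The 18 DAS libraries held 272, 299, 334 and 354 CPM (315 ± 36.4, SD, n = 4), and 2 of them lay within the 16 DAS range.

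**Figure D1:**
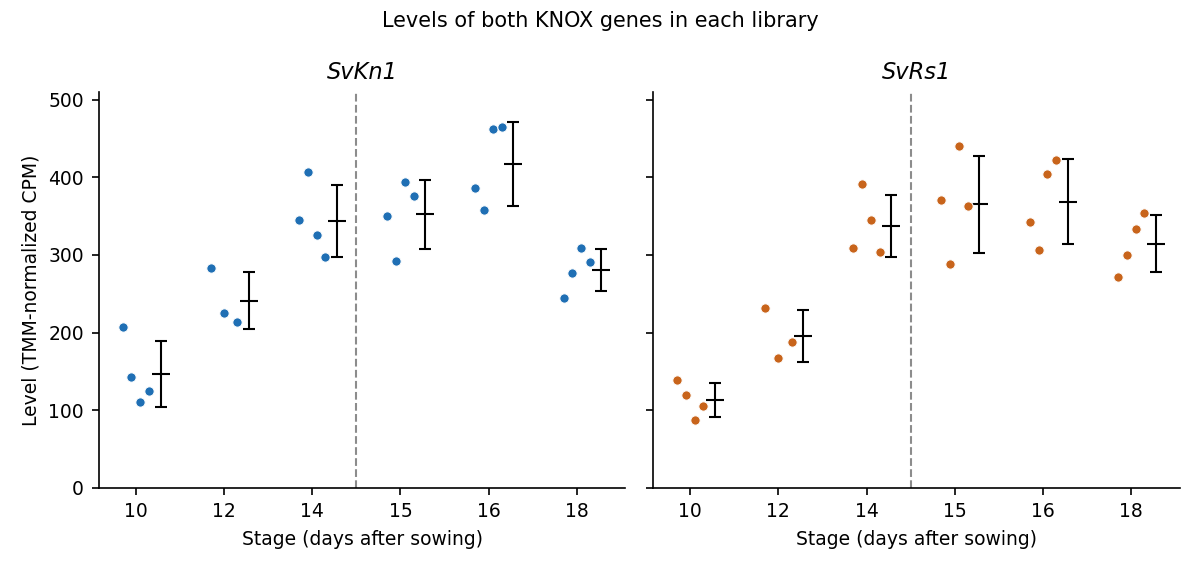
Level of SvKn1 (left) and SvRs1 (right) in each of the 23 libraries, in TMM-normalized CPM on a linear axis that starts at 0, by stage in days after sowing. Points are libraries in replicate order, black marks are the mean ± SD, and the dashed line separates the 2 sequencing runs. Both genes climb from 10 to 14 DAS (SvKn1 146 to 344 CPM, SvRs1 113 to 337 CPM) and SvKn1 alone separates 18 DAS from 16 DAS without overlap.

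SvKn1 rested on 1765 to 7598 counts in a library and SvRs1 on 1443 to 7385, and all of these were whole numbers in the deposited table. The median coefficient of variation within a stage was 13.2% for SvKn1 and 15.8% for SvRs1, beside 12.4% as the median over all tested genes. The range of stage means was exceeded by 11.1% of tested genes for SvKn1 and by 8.36% for SvRs1. The same pair of extremes, highest at 16 and lowest at 10 DAS, was found in 1508 of the tested genes (7.12%).

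The first question was whether the genes changed over the series at all. Both did by edgeR's quasi-likelihood F-test with Benjamini-Hochberg adjustment, with an adjusted p of 2.50e-07 for SvKn1 and 5.16e-09 for SvRs1, but this test spans both sequencing runs and was passed by 88.3% of all tested genes. Among 10, 12 and 14 DAS alone, where 35.7% of genes were called, the adjusted p of this F-test was 6.97e-06 for SvKn1 and 9.50e-08 for SvRs1. Among 15, 16 and 18 DAS alone, where 57.7% of genes were called, it was 0.0106 for SvKn1 and 0.292 for SvRs1. Both genes therefore varied among the branching stages, and SvKn1 passed the test among the spikelet and floral stages, where SvRs1 did not. The difference between the genes was tested only through their ratio.

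Both genes rose between the first 2 stages sampled. From 10 to 12 DAS, SvKn1 rose by a log2 fold change of 0.72 (SE 0.17, 1.64-fold) and SvRs1 by 0.79 (SE 0.16, 1.73-fold). The adjusted p by edgeR's quasi-likelihood test was 0.00466 for SvKn1 and 0.0014 for SvRs1. Of all tested genes 14.4% were called in this comparison, 6.61% as higher, and 11.7% had all 12 DAS libraries above all 10 DAS libraries. SvKn1 was nearest to the threshold without replicate 1 of 12 DAS, with a log2 fold change of 0.58 and an adjusted p of 0.049 by edgeR's test.

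From 12 to 14 DAS, when higher-order branches form, SvRs1 rose again by a log2 fold change of 0.79 (SE 0.16, adjusted p = 0.00434 by edgeR's quasi-likelihood test). The estimate for SvKn1 was 0.51 (SE 0.17, 95% interval 0.17 to 0.86) with an adjusted p of 0.0791 by the same test, although its 14 DAS libraries did not overlap those of 12 DAS. This comparison had the fewest calls among adjacent stages (5.27% of genes, 2.31% higher, against 10% without overlap in that direction). The call for SvKn1 here depended on the fit. Its adjusted p was 0.0185 with only the libraries of 12 and 14 DAS in edgeR, 0.0439 in DESeq2 and 0.0253 in edgeR without replicate 1 of 10 DAS, all with an estimate of 0.51. Over the whole interval from 10 to 14 DAS, SvKn1 rose by 1.23 (SE 0.16, 2.35-fold, adjusted p = 1.54e-06) and SvRs1 by 1.57 (SE 0.15, 2.98-fold, adjusted p = 2.28e-08) in edgeR's test, where 42.1% of genes were called and 20.7% were higher.

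The transition to spikelet meristems brought no called change in either gene. From 14 to 15 DAS the log2 fold change was 0.04 for SvKn1 (95% interval -0.28 to 0.36) and 0.12 for SvRs1 (95% interval -0.18 to 0.42), with adjusted p values of 0.849 and 0.511 in edgeR's quasi-likelihood test. Of all tested genes 56.4% were called between these stages, across which the sequencing run also changes. From 15 to 16 DAS, within one run, the log2 fold change of SvKn1 was 0.24 (95% interval -0.07 to 0.56, adjusted p = 0.243 by edgeR's test) and that of SvRs1 0.01 (95% interval -0.29 to 0.31, adjusted p = 0.961), where 28.6% of genes were called. Replicate numbers were taken as pairs for these 2 stages, since the deviations of all same-numbered libraries correlated over 0.1. Libraries of unlike number were not compared in this way, so the pairing is not established. SvKn1 was higher at 16 DAS in 4 of 4 same-numbered pairs (log2 differences 0.14 to 0.30), SvRs1 in 2 of 4 (-0.13 to 0.22). Over these pairs, exact permutation of the signs (two-sided) gave p = 0.125 for SvKn1, the smallest that 4 pairs allow, and p = 1 for SvRs1. With only these 2 stages in edgeR and the replicate number as a block, the SvKn1 estimate was 0.22 (95% interval 0.04 to 0.40, adjusted p = 0.0554) and did not pass the test. Without replicates 1 and 2 of 15 DAS the estimates became 0.12 for SvKn1 and -0.12 for SvRs1, and neither passed the test. These intervals are wide, and do not show that the levels were equal.

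The last step was to the floral organ stage. SvKn1 fell between 16 and 18 DAS by 0.57 on the log2 scale (SE 0.15), to 0.672 of its 16 DAS level, with an adjusted p of 0.00568 by edgeR's quasi-likelihood test. The estimate for SvRs1 was -0.23 (SE 0.15, 95% interval -0.53 to 0.07, adjusted p = 0.228). In this comparison 36.5% of genes were called, 16.3% as lower, and 18.4% had all 18 DAS libraries below all 16 DAS libraries. From 15 to 18 DAS the log2 fold change was -0.33 for SvKn1 (95% interval -0.65 to -0.01, adjusted p = 0.0872 by edgeR's test) and -0.22 for SvRs1 (95% interval -0.52 to 0.08, adjusted p = 0.24), where 42.7% of genes were called. That estimate for SvKn1 passed the threshold when replicates 1 and 2 of 15 DAS were left out (-0.46, adjusted p = 0.0409 by edgeR's test).

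**Figure D2:**
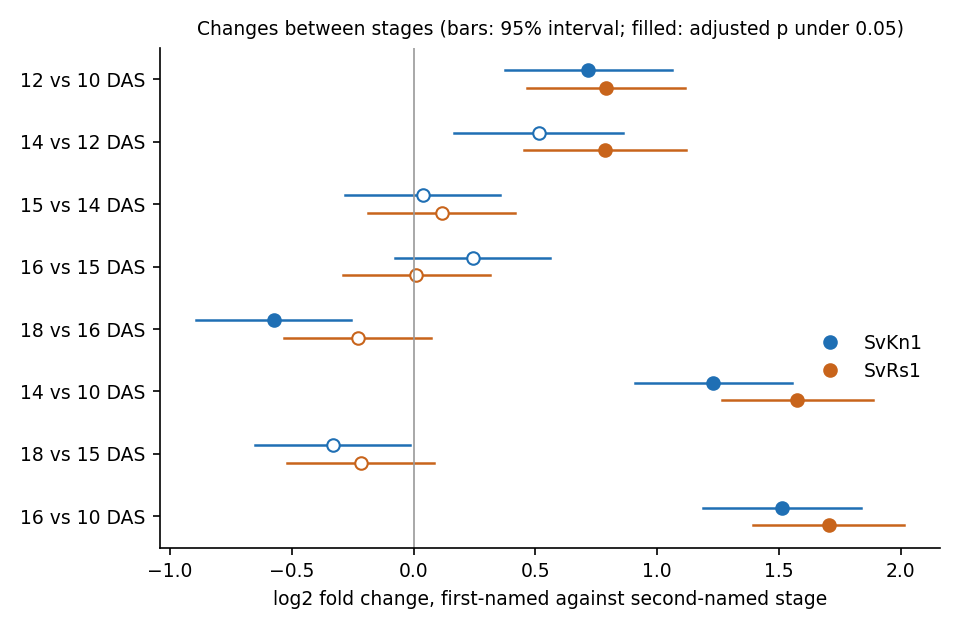
Log2 fold change of SvKn1 (blue) and SvRs1 (orange) for 8 comparisons of stages, first-named against second-named, with 95% intervals as bars from the edgeR fit of all 23 libraries. Filled points have an adjusted p under 0.05. Both genes are filled for 12 against 10, 14 against 10 and 16 against 10 DAS, SvRs1 alone for 14 against 12 DAS (0.79) and SvKn1 alone for 18 against 16 DAS (-0.57).

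The order of the stage means was the same for both genes, with 16 DAS highest, then 15, 14, 18, 12 and 10 DAS. Most neighbours in this order did not differ beyond their spread. For SvKn1, 16 and 15 DAS, 15 and 14 DAS, 14 and 18 DAS, and 18 and 12 DAS did not pass edgeR's test and overlapped, and only the last step down, from 12 to 10 DAS, passed it. For SvRs1 the first 3 of these steps likewise did not pass, and its level was higher at 18 than at 12 DAS (log2 fold change 0.69, adjusted p = 9.82e-04 by edgeR's quasi-likelihood test, in a comparison across sequencing runs where 54.2% of genes were called). The same difference for SvKn1 was 0.22 (95% interval -0.13 to 0.56, adjusted p = 0.274). At 18 DAS, the mean of SvRs1 stood at 85.3% of its 16 DAS value and that of SvKn1 at 67.2%. Against 10 DAS, the 18 DAS level was 1.92-fold higher for SvKn1 and 2.78-fold higher for SvRs1, in a comparison across sequencing runs in which 61.2% of genes were called.

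The ratio of the 2 genes within a library needs no scaling between libraries, and transcript length cancels when the ratio is compared between stages. At 10 DAS the ratio of SvKn1 to SvRs1 counts was 1.49, 1.19, 1.26 and 1.18 in replicates 1 to 4. At 12 DAS it was 1.22, 1.35 and 1.14, and at 14 DAS it was 1.11, 1.04, 0.945 and 0.98. The ratio was thus above 1.1 in every library of the first 2 stages, and all 14 DAS libraries lay below all of these. At 15 DAS it was 0.944, 1.01, 0.892 and 1.04, overlapping 14 DAS. At 16 DAS it was 1.13, 1.17, 1.15 and 1.1, the narrowest group, above every library of 15 DAS. At 18 DAS it was 0.901, 0.925, 0.927 and 0.822, below every library of 16 DAS.

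The changes of this ratio were tested with an exact two-sided permutation test on its log2 value, adjusted over 7 comparisons. The log2 ratio differed by -0.35 from 16 to 18 DAS, from 15 to 16 DAS by 0.23 and from 10 to 14 DAS by -0.32. Each of these 3 comparisons of 4 against 4 libraries reached an exact permutation p of 0.0286, the smallest that such a comparison can give, and an adjusted p of 0.0667, so that none passed after adjustment. From 12 to 14 DAS the difference was -0.28 (exact permutation p = 0.0571, the smallest possible for 3 against 4, adjusted p = 0.1). The groups did not overlap in any of these 4 comparisons. The other 3 differences were -0.05 from 10 to 12 DAS (exact permutation p = 0.743, adjusted p = 0.743), -0.07 from 14 to 15 DAS (0.314, adjusted 0.367) and -0.12 from 15 to 18 DAS (0.143, adjusted 0.2), all with overlapping groups. A larger drop of SvKn1 than of SvRs1 from 16 to 18 DAS was thus not established after adjustment.

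**Figure D3:**
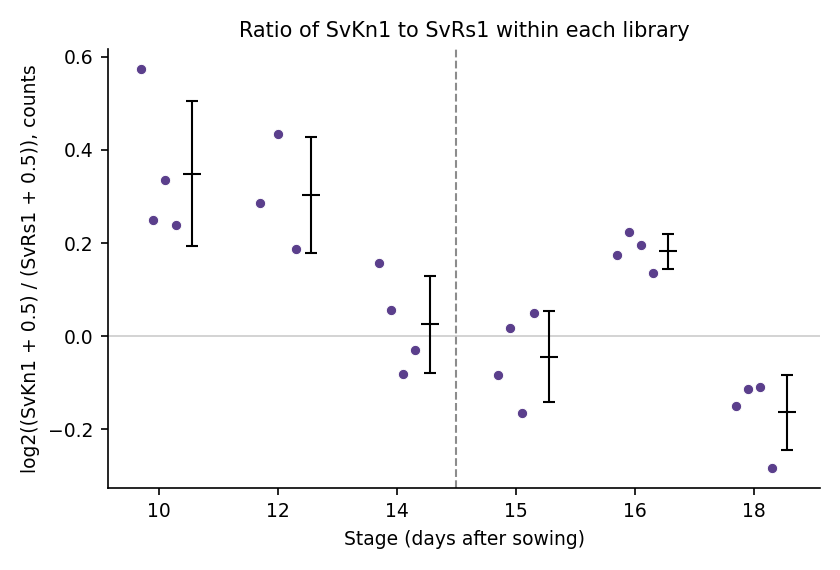
Log2 of the ratio of SvKn1 to SvRs1 counts (0.5 added to each) in each library, by stage in days after sowing. Points are libraries, black marks are the mean ± SD, the grey line is an equal count of both genes and the dashed line separates the 2 sequencing runs. The ratio is highest at 10 and 12 DAS (means 0.35 and 0.30 on the log2 scale), near 0 at 14 and 15 DAS, 0.18 at 16 DAS and lowest at 18 DAS (-0.16).

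The 2 genes also moved together between pools of a single stage. Their deviations from the stage mean had the same sign in 20 of the 23 libraries, with a Pearson r of 0.90 over the 23 libraries, 0.89 over the 11 libraries of 10, 12 and 14 DAS and 0.94 over the 12 libraries of the later stages. These values are descriptions, since the deviations of a stage sum to 0 and both genes of a library share its depth and its scaling factor. Replicate 1 of 10 DAS stood highest for both genes (deviations of 0.54 for SvKn1 and 0.32 for SvRs1 on the log2 scale) and replicate 3 of 10 DAS lowest (-0.36 and -0.35).

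**Figure D4:**
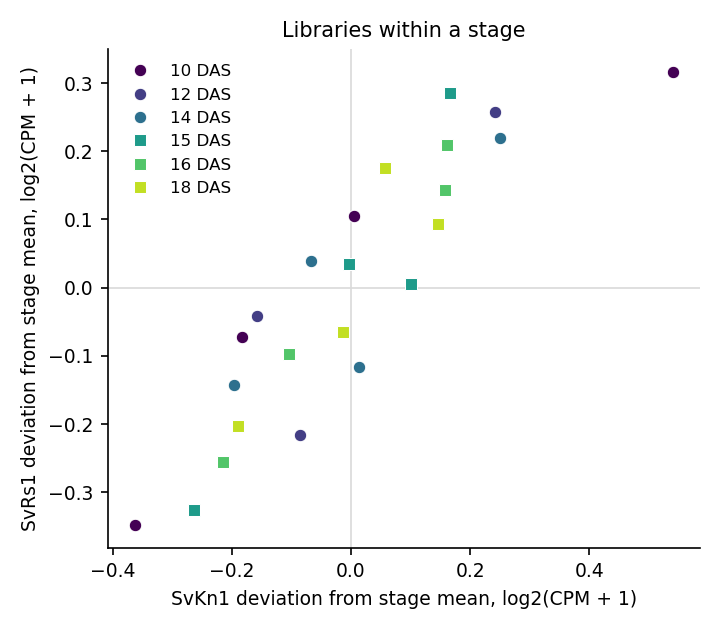
Deviation of each library from its stage mean for SvKn1 (x axis) and SvRs1 (y axis), both in log2(CPM + 1). Circles are libraries of the paired-end run (10, 12 and 14 DAS) and squares those of the single-end run (15, 16 and 18 DAS). The points run from replicate 3 of 10 DAS at the lower left to replicate 1 of 10 DAS at the upper right, and 20 of 23 lie in the quadrants of equal sign.

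Likeness to other genes was measured as the Pearson correlation of log2(CPM + 1) over the 23 libraries, given as a description because the libraries fall into 6 stages and 2 runs. Among the 21179 other tested genes, SvRs1 ranked 2nd in likeness to SvKn1 (r = 0.96) and SvKn1 ranked 9th in likeness to SvRs1. By Spearman's rho the pair stood at 0.93, with ranks of 9 and 4. Over the 6 stage means alone r was 0.97, where SvRs1 ranked 85th for SvKn1 and SvKn1 107th for SvRs1. The study had already placed both genes in a single co-expression cluster of these samples, so their likeness is not independent evidence. The genes with no name that were most like them included Sevir.8G175000 (r = 0.96 with SvKn1 and 0.97 with SvRs1) and Sevir.9G507200 (0.95 and 0.97). The 5 genes most like each member depended on the measure. Of those by Pearson's r, 0 for SvKn1 and 1 for SvRs1 were among the first 5 by Spearman's rho. Over the stage means the counts were likewise 0 and 1.

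Of the other 38 genes that the study names, SvRa3, the counterpart of maize ramosa3, which encodes a trehalose-6-phosphate phosphatase that restricts branching, was most like both after the pair itself (r = 0.93 with SvKn1 and 0.92 with SvRs1). By Spearman's rho, however, SvRa3 was more like SvKn1 (0.95) than SvRs1 was (0.93), and over the stage means likewise (r = 0.99 against 0.97). With SvRs1, SvRa3 had a rho of 0.86, below that of SvKn1 (0.93). SvTb1, the counterpart of the maize branching repressor teosinte branched1, followed in Pearson's r over the libraries with 0.91 and 0.92. SvFea4, a bZIP gene whose maize counterpart limits meristem size, had r = 0.87 with each. SvSyd completed the 5 names most like SvKn1 (0.85), and SvBd1, whose maize counterpart branched silkless1 sets spikelet meristem fate, those most like SvRs1 (0.89). The lowest correlations among the names were those of SvTfl1, the counterpart of the flowering repressor TERMINAL FLOWER 1 of Arabidopsis, with -0.86 for SvKn1 and -0.91 for SvRs1. SvLg2 (-0.67 and -0.70) and SvTaw1 (-0.60 and -0.76) followed, in this order for SvKn1 and in the reverse order for SvRs1. These orders are by Pearson's r. By Spearman's rho SvLg2 (-0.79 and -0.73) was lower than SvTfl1 (-0.63 and -0.64).

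Likeness was also ranked among 424 tested transcription factor genes that the study lists by family, a set that is not complete, holds neither KNOX gene and includes 29 MADS-box genes. The MADS-box genes Sevir.9G347400, Sevir.9G087100 and Sevir.4G060800 came first for SvRs1, with r = 0.96, 0.96 and 0.95 with SvRs1. The next were the C2H2 zinc finger gene Sevir.2G222600 (0.94) and the MADS-box gene Sevir.2G006400 (0.94), annotated as like rice MADS15 and Arabidopsis APETALA1. For SvKn1, Sevir.2G006400 came first (0.93), before Sevir.9G347400 (0.91), the C2H2 gene Sevir.5G401500 (0.91), SvTb1 (0.91) and the bHLH gene Sevir.9G553500 (0.90).

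SvBrm and SvSyd are the counterparts of BRAHMA and SPLAYED, SWI/SNF ATPases that remodel chromatin in Arabidopsis, where BRAHMA is a partner of the KNOX protein BREVIPEDICELLUS. SvBrm stood at a mean of 138 CPM at 10, 176 at 12 and 219 at 14 DAS, then at 240.4 at 15, 349.6 at 16 and 229 at 18 DAS. SvSyd ran from 317 CPM at 10 DAS through 413 and 512 to 754 at 15 DAS and 958 at 16 DAS, and stood at 550.5 at 18 DAS. Both were thus lowest at 10 and highest at 16 DAS in their stage means, as the KNOX genes and 7.12% of all tested genes were. The SvRs1 means at 15 and 16 DAS were nearly level, however (366 and 369 CPM). SvBrm and SvSyd rose from 10 to 14 DAS, where 20.7% of all tested genes were called higher. Their log2 fold changes were 0.67 (adjusted p = 4.31e-04) and 0.69 (adjusted p = 1.83e-04) by edgeR's quasi-likelihood test. Both also rose from 15 to 16 DAS, where 28.6% of all tested genes were called and neither KNOX gene was. By the same test SvBrm rose by 0.54 (adjusted p = 0.00531) and SvSyd by 0.35 (adjusted p = 0.0471). Between 16 and 18 DAS both fell, by 0.61 (adjusted p = 0.00126) and 0.80 (adjusted p = 6.35e-05) on the log2 scale in edgeR's test. Of all tested genes 16.3% were called lower there. The differences of these changes from those of the KNOX genes were not tested, and the study chose this pair for its pattern in these samples.

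The 4 listed genes of meristem size control were SvWus, SvTd1, SvFon2 and SvFea4. SvWus is the counterpart of the stem cell regulator WUSCHEL, SvTd1 of the CLAVATA1 receptor and SvFon2 of the CLAVATA3 peptide of Arabidopsis. All 4 rose from 10 to 14 DAS, where 20.7% of all tested genes were called higher. Their median log2 fold change was 2.39 beside 0.01 over all tested genes. From 10 to 12 DAS, where 6.61% of all tested genes were called higher, 3 of the 4 already rose. The study named these genes, and those of the next list, with their expression in these samples known, so the direction is not independent evidence. SvWus rose by 2.90 (from a mean of 0.337 to 2.60 CPM), SvFea4 by 2.08 and SvTd1 by 1.89 on the log2 scale. SvFon2, the lowest of them, went from 0 to 3 counts in each 10 DAS library to 6 to 13 counts in each 14 DAS library. The largest adjusted p of these 4 was 0.00131 in edgeR's quasi-likelihood test. From 16 to 18 DAS, SvTd1 (-0.49, adjusted p = 0.0201) and SvFea4 (-0.67, adjusted p = 0.0208) fell in that test. SvWus and SvFon2 had estimates of -0.63 and -1.08 that did not pass it. Between these stages 16.3% of all tested genes were called lower. From 14 to 15 DAS, across the runs, SvWus fell by 1.86 and SvTd1 by 0.83, and SvFon2 and SvFea4 were not called. There 56.4% of all tested genes were called, and neither KNOX gene was.

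Genes of organ boundaries, which separate a meristem from its lateral organs, were SvCuc2, SvCuc3 and a BOP2-like gene. SvCuc2 rose by 2.04 and SvCuc3 by 2.27 from 10 to 14 DAS on the log2 scale (adjusted p = 1.71e-07 and 6.38e-08 by edgeR's quasi-likelihood test), and the BOP2-like gene had 0.11 (adjusted p = 0.627). SvCuc2 stood at 30.4, 98.0 and 125 CPM at 10, 12 and 14 DAS, and SvCuc3 at 16.4, 56.8 and 79.7 CPM. At 18 against 16 DAS SvCuc2 alone of the 3 was called (-0.66, adjusted p = 0.018 in edgeR's test), and at 16 against 15 DAS SvCuc3 alone (0.96, adjusted p = 0.00337). In these comparisons 36.5% and 28.6% of all tested genes were called, and from 10 to 14 DAS 20.7% were called higher.

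None of the 3 other listed TALE genes rose from 10 to 14 DAS. The KNAT3-like gene, of the class II KNOX type that is broadly expressed, stood from 10 to 14 DAS at 68.6, 71.1 and 72.2 CPM (log2 fold change 0.07, SE 0.08, adjusted p = 0.49 by edgeR's test). It stood at 42.5, 56.3 and 51.7 CPM at 15, 16 and 18 DAS, and rose from 15 to 16 DAS by 0.41 (adjusted p = 0.00123 in edgeR's test). The ATH1-like gene, of the BELL type, ranged only from 78.8 to 104 CPM in its stage means and did not pass the F-test among 6 stages (adjusted p = 0.101, edgeR). A BLH7-like BELL gene was low, at 0.75 to 3.87 CPM, and fell from 10 to 14 DAS by 1.52 on the log2 scale (adjusted p = 8.35e-04, edgeR). It was the only one of the 3 called between these stages, where 42.1% of all tested genes were called and 20.7% were higher.

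Enzymes of gibberellin and cytokinin metabolism, the hormones through which KNOX proteins are known to act, numbered 6 in the list, and 5 were tested. From 10 to 14 DAS, where 42.1% of all tested genes were called and 20.7% were higher, 3 rose, 1 fell and 1 was not called. Their median log2 fold change was 1.97 beside 0.01 over all tested genes. The LOG-like gene, whose rice counterpart releases active cytokinin, rose by 2.14 (adjusted p = 3.24e-06 by edgeR's quasi-likelihood test) from 2.69 to 12.2 CPM. A GA2ox8-like gene (Sevir.7G180700) rose by 2.45 (adjusted p = 2.93e-06) from 0.805 to 4.43 CPM, and a second one (Sevir.1G247200) rose by 1.97 (adjusted p = 0.0174) from 0.204 to 0.762 CPM. The GA2ox1-like gene, by name the type that maize KN1 targets, was called lower (adjusted p = 0.0127), from 2 to 14 counts in each 10 DAS library to 0 to 4 counts in each 14 DAS library. The GA20ox1-like gene, of the type that makes gibberellin, had a log2 fold change of 0.78 that did not pass the test (adjusted p = 0.134). In the step from 16 to 18 DAS both GA2ox8-like genes fell, by 1.71 (adjusted p = 0.00231) and 1.61 (adjusted p = 0.0322) in edgeR's test. The other 3 tested enzymes were not called there, and 16.3% of all tested genes were called lower.

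**Figure D5:**
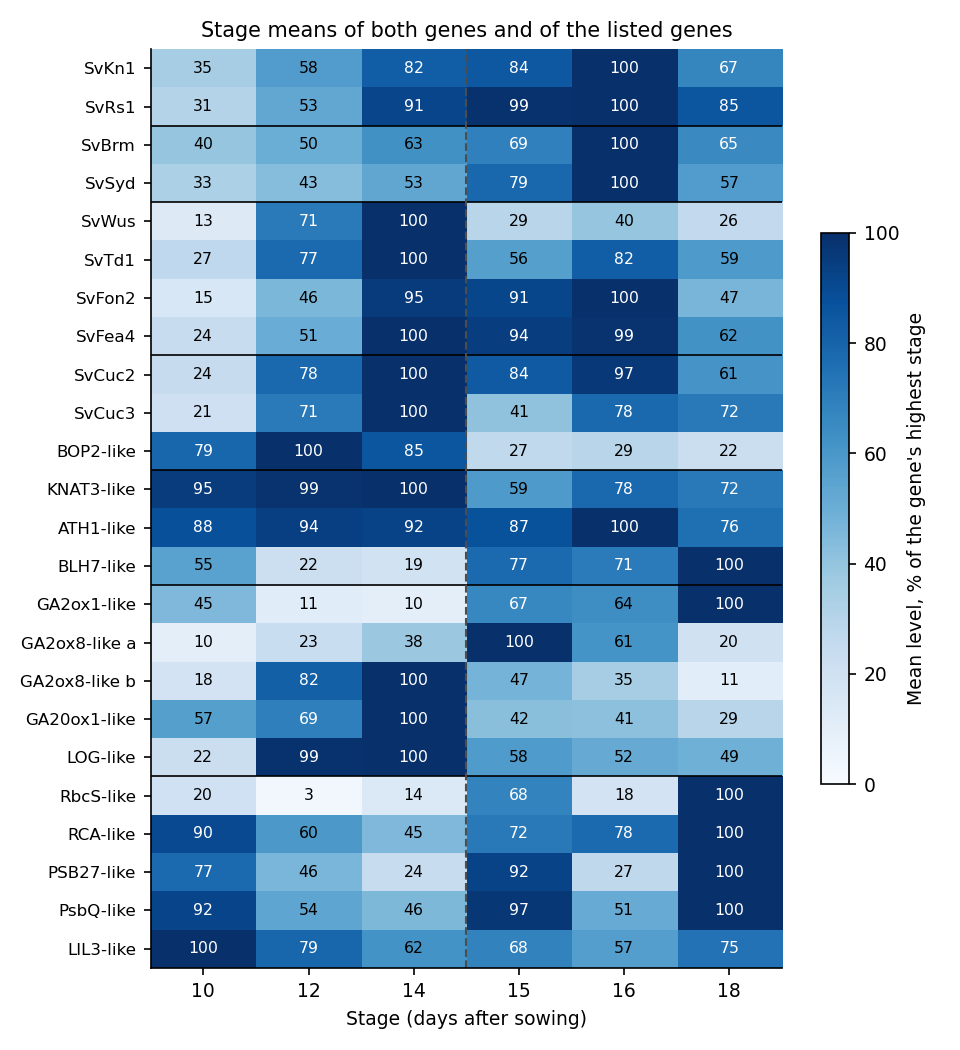
Mean CPM of each gene at each stage as a percentage of that gene's own highest stage mean, from white (0) to dark blue (100), with the rounded percentage in each cell. Horizontal lines separate the KNOX genes, chromatin partners, meristem size, boundary, other TALE, hormone enzyme and leaf genes, and the dashed line separates the 2 sequencing runs. SvKn1 and SvRs1 reach 82% and 91% at 14 DAS and 100% at 16 DAS, and SvBrm and SvSyd also reach 100% at 16 DAS. Most meristem size, boundary and hormone genes are darkest at 14 DAS. The 14 and 16 DAS libraries are of different runs, and neither KNOX gene was called between these stages.

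The tissue label was checked with markers of the inflorescence primordium and of leaf, the other tissue that a hand dissection could carry over. SvLfy, SvUb3 and SvBif2, genes of inflorescence meristems and branching, were present at every stage. All 3 rose from 10 to 12 DAS, where 6.61% of all tested genes were called higher. Their summed level ran from 92.5 to 128 CPM at 10 DAS and from 245 to 344 CPM at 12 DAS. From 16 to 18 DAS, 2 of the 3 fell, where 16.3% of all tested genes were called lower. Both KNOX genes rose from 10 to 14 DAS, where 42.1% of all tested genes were called and 20.7% were higher. Among 5 leaf photosynthesis genes, 2 fell and none rose in that comparison. Their summed level was 79.4 to 97.3 CPM at 10 DAS, 62.0 to 71.8 at 12 DAS and 44.5 to 51.1 at 14 DAS. From 16 to 18 DAS, where 36.5% of all tested genes were called and 16.3% were lower, 3 of the 5 leaf genes rose, while SvKn1 fell. The summed level of the leaf genes was 54.2 to 96.0 CPM at 15 DAS, 42.4 to 49.2 at 16 DAS and 64.7 to 90.3 at 18 DAS. Nearly all of this sum came from the LIL3-like and PSB27-like genes, and the RbcS-like gene, for the small subunit of Rubisco, and the RCA-like gene, for Rubisco activase, were close to absent, with stage means of at most 1.70 CPM for the RbcS-like and 0.846 CPM for the RCA-like gene, and no RbcS-like count in 5 of the 23 libraries. The part of leaf tissue or of the share of meristem cells in the changes of SvKn1 and SvRs1 was not tested.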

How the data were processed

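Expression was measured by poly(A) RNA-seq in 23 libraries at 6 stages. The authors quantified reads with Salmon v0.8.1 against v1.1 primary transcripts of S. viridis and deposited expected counts (estimated counts) per gene from tximport, without normalization. These were rounded here, since 8.77% of all values had a fraction, although none of SvKn1 or SvRs1 did. edgeR 4.0.16 in R 4.3.3 was run with TMM, filterByExpr and a mean for each stage over all 23 libraries. Its quasi-likelihood tests were two-sided with Benjamini-Hochberg adjustment over 21180 genes. The SE was derived from the test, as the size of the log2 fold change over the root of its F statistic. The ratio test used scipy 1.17.1 with 0.5 added to each count.

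SvKn1, SvRs1 and the gene lists were chosen with earlier results of these data known. Named genes are both members, every listed gene, and for each member the 5 most correlated genes among all tested genes, among the study's names and among transcription factors listed by family, plus the 3 names with the lowest correlation. Only the unnamed genes most like both members are printed. Lists of TALE, hormone and leaf genes hold the annotated genes of shortened supplementary tables, so they are not complete families. A CKX7-like gene was too low to be tested.

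Alternatives were scaling by library size, all 30004 genes with at least 1 count, at least 10 counts in every library, a replicate block, fits of only the stages compared, DESeq2 1.42.0 and leaving out each library in turn. Leaving out replicates 1 and 2 of 15 DAS, and a fit of 15 and 16 DAS with the block, were added after seeing the data. Deviations of same-numbered libraries from their stage means correlated over 0.1 in all pairs for 15 and 16 DAS only (r = 0.14 to 0.65 over 4 pairs), so the numbers were taken as pairs for these 2 stages alone. Libraries of unlike number were not compared, so this check does not show that the numbers mark pairs. The labels do not say what a number marks. In simulated data for 12 against 10 DAS, 200 of 21180 genes were changed 2-fold. There edgeR recovered 80%, with 1.23% of its calls false. DESeq2 recovered 82.5%, with 12.2% of its calls false. No pair of libraries of a stage was a copy (chi-square per degree of freedom 3.53 to 42.2 over 33 pairs).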

Additional observations from a re-analysis of the deposited data

Results flagged for a closer look

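In 2 of 140 groups of 4 libraries that were examined, 1 library stood far from the other 3 by Dixon's criterion, which chance meets in about 1 of 20 groups, and neither group is of SvKn1 or SvRs1. Replicate 1 of 18 DAS held 58.4 CPM of the ATH1-like gene against 83.3 to 87.6 CPM in the other 3 libraries, a gap of 0.854 of the whole range. Replicate 4 of 16 DAS held 1.35 CPM of the GA20ox1-like gene against 3.48 to 3.74 CPM in the others, a gap of 0.891 of the whole range.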

How the results depend on the processing

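Every called change of SvKn1 and SvRs1, in the F-tests and the 10 comparisons of stages that were rerun, kept its direction and its side of the threshold in all alternatives, including each fit without 1 library. Results near the threshold or near 0 moved. SvKn1 between 12 and 14 DAS passed with only the stages compared (0.51) and in DESeq2 (0.51), with 0.42 to 0.64 when single libraries were left out. SvKn1 between 15 and 18 DAS passed with library size alone (-0.41), with only the stages compared (-0.36) and without replicates 1 and 2 of 15 DAS (-0.46), with -0.41 to -0.27 when single libraries were left out, where it passed without replicate 1 of 10 DAS (adjusted p = 0.0337 in edgeR) or replicate 2 of 15 DAS (0.037). The uncalled SvRs1 estimate between 15 and 16 DAS changed sign with scaling by library size (-0.069), a filter of at least 1 count in total (-0.00805), at least 10 counts in every library (-0.00481), only the stages compared (-0.012), these with the replicate block (-0.00559) and without replicates 1 and 2 of 15 DAS (-0.12), with -0.0903 to 0.13 when single libraries were left out. Between 14 and 15 DAS, leaving out single libraries gave -0.035 to 0.13 for SvKn1 and -0.0021 to 0.22 for SvRs1, and for the ratio between 10 and 12 DAS -0.11 to 0.028. The cause of these shifts was not tested.

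With at least 10 counts in every library, only 2 genes each of the meristem size, other TALE and hormone enzyme lists could be tested, in place of 4, 3 and 5. Those called among 6 stages were then 2, 1 and 2 in place of 4, 2 and 5, among 10, 12 and 14 DAS 2, 0 and 1 in place of 4, 1 and 3, and among 15, 16 and 18 DAS 0 hormone enzymes in place of 2. With this filter 90.5%, 34.9% and 62.3% of all genes were called in these tests, in place of 88.3%, 35.7% and 57.7%. With only the stages compared, 1 gene each of the meristem size, boundary and other TALE lists was called among 15, 16 and 18 DAS. Without single libraries, the counts there were 1 to 2 for meristem size, boundary and other TALE and 1 to 3 for leaf genes. The count of all genes called between 12 and 14 DAS was 1116, 1676 with only the stages compared and 510 without replicate 2 of 12 DAS.

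Apart from 15 and 16 DAS, no 2 stages had all same-numbered pairs correlated over 0.1, and over all stages 14 of 55 such pairs were. With a replicate block, the SvKn1 estimate between 10 and 12 DAS was 0.72 and that of SvRs1 0.80, and the block changed no call of either gene, also with only 15 and 16 DAS in the fit.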
